A study of Mus musculus with 48 samples.

Results

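The 10 genes described here encode enzymes that make serine, one-carbon units, asparagine and proline: Phgdh, Psat1, Psph, Shmt1, Shmt2, Mthfd2, Mthfd1l, Asns, Aldh18a1 and Pycr1. They were picked by symbol as enzymes under the control of the transcription factor ATF4, and no threshold on their values entered the rule. All 10 were found among the 55487 genes of the table, and all 10 passed the filter on low counts in RNA, in footprints and in the ratio of the latter to the former. Ribosomal protein defects had been introduced by CRISPR-Cas9 into Ba/F3 cells, an interleukin 3 dependent line of murine pro-B origin. Of the 8 genotypes, 1 was the unedited WT and 3 had lost a single allele of Rpl5, of Rpl11 or of Rpl22 (Rpl5+/-, Rpl11+/- and Rpl22+/-). Another 3 clones are labelled Rpl22-/-, for loss of both alleles. The other 3 are labelled as carrying a substitution on both alleles: H137Y or P131S in Rps15, or R98S in Rpl10. Each genotype was represented by 3 clones, and each clone gave 1 poly(A) RNA-seq library and 1 library of ribosome footprints (fragments of 28 to 30 nt protected by ribosomes), 48 libraries in all. All cultures, WT included, grew with 10% serum and 1 ng/ml interleukin 3 and received 0.1 mg/ml cycloheximide, which halts elongating ribosomes, for 1 min before lysis. An edited clone descends from a single cell, so differences between clones of 1 mutant genotype include what each clone acquired while it was isolated. The WT cultures are numbered 1 to 3 and are called clones here too. Their titles do not say whether each descends from a single cell. The p-values set differences between genotypes against the spread between these clones.

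Serine is built from a glycolytic intermediate by PHGDH, PSAT1 and PSPH. The serine hydroxymethyltransferases SHMT1 (cytosol) and SHMT2 (mitochondria) move a carbon from serine to tetrahydrofolate, and MTHFD2 and MTHFD1L carry that unit through the mitochondrial folate pathway to formate, which feeds nucleotide synthesis. ASNS makes asparagine from aspartate and glutamine, and ALDH18A1 and PYCR1 make proline from glutamate. ATF4 is translated preferentially when the initiation factor eIF2 is phosphorylated, for example when amino acids are short, and it activates many of these genes through C/EBP-ATF response elements (CARE). Proliferating lymphoid and leukaemic cells are known for a high demand on these routes, and asparaginase therapy of lymphoblastic leukaemia exploits low ASNS.

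The stretch around the start site is shown for Asns and Pycr1, which hold a CARE there and fell furthest in RNA of both Rps15 mutants. It is also shown for Mthfd2, which fell next furthest in RNA of Rps15 H137Y and holds none in its window. In P131S footprints the lowest estimate was that of Psph (log2 change -1.27, not called), which holds none either. Each line runs 5′ to 3′ on the strand of the gene, from 250 bases before the RefSeq start site to 50 bases from the start on (GRCm38.p6), with a CARE in capitals. All of these genes lie on the minus strand: Asns on chromosome 6 from 7675165 to 7693209 (window chr6:7693160-7693459), Pycr1 on chromosome 11 from 120638998 to 120643748 (window chr11:120643699-120643998) and Mthfd2 on chromosome 6 from 83305704 to 83326011 (window chr6:83317555-83317854, around a start site inside the annotated span).
Asns: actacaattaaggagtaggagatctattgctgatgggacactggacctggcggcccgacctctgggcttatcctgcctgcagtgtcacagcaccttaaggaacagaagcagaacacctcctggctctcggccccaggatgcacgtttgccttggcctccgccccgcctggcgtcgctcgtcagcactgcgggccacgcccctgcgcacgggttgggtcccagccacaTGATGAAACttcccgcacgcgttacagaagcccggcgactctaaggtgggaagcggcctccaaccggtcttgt
Pycr1: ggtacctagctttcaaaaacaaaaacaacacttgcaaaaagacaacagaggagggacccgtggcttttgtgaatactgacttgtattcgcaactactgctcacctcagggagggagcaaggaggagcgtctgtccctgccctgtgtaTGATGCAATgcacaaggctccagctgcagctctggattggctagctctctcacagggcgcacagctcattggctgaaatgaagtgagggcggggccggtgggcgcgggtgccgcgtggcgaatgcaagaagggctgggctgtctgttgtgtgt
Mthfd2: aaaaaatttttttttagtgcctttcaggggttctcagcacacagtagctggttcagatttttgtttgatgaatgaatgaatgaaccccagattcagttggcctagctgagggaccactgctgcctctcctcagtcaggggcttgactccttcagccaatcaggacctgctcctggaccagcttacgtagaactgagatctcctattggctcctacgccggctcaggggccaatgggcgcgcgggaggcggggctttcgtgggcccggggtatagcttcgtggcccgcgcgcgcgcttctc
The motif searched was TGATGNAAN on both strands. In Asns the match is TGATGAAAC with its first base at -23 from the start site, the letters of the nutrient-sensing element known from the asparagine synthetase promoter. In Pycr1 it is TGATGCAAT with its first base at -103. The other 8 members had no match in these windows, while 4.0% of 32851 windows of this length, or 4.5% of 27025 genes, held one. An E-box (CACGTG, both strands) occurred in 1 member, Aldh18a1, at -59, and in 8.1% of genes. A match is a description of the letters and not evidence of binding.

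Library totals ran from 13029073 to 38258559 estimated counts in RNA and from 15598994 to 72044439 in footprints. Of 11 B-lineage markers, 8, among them Pax5, Ebf1 and Rag1, stayed below 1 CPM (estimated counts relative to the TMM-scaled library total) in every RNA library. These defining transcripts of the pro-B stage, after which the line is named, were thus at or near 0. Of the other markers on that list, Ptprc ran from 167 to 302 CPM, Cd79b from 3.3 to 9.9 CPM and Cd79a from 0 to 9.8 CPM. The edited genes checked the labels where a loss was expected: Rpl5 RNA was at 67.2% of WT in Rpl5+/-, Rpl11 at 64.1% in Rpl11+/-, and Rpl22 footprints at 58.7% in Rpl22+/-. In the clones labelled Rpl22-/-, Rpl22 footprints were at 274 (clone 649), 317 (clone 776) and 1544 CPM (clone 30), against 1429 to 1596 in Rpl22+/- and 2350 to 2786 in WT. The clone labelled Rpl22-/- 30 thus held as many Rpl22 footprints as the Rpl22+/- clones. It did not show the loss seen in clones 649 and 776 of the same label. The sequence of its edited alleles is not given in the sources used here. The summed RNA of 11 myeloid genes was 45.0 to 198 CPM in WT, and in the Rps15 mutants it reached 593 to 3591 (P131S) and 651 to 4193 (H137Y), with Elane and Camp under 1 CPM throughout. T cell genes summed to at most 13.5 CPM and fibroblast genes to at most 8.71 CPM in any clone, and the interleukin 3 receptor genes to 876 to 1039 CPM in WT, 2234 to 2844 in P131S and 1421 to 2511 in H137Y. Of 8 erythroid and mast cell genes 7 were in the table, with Ms4a2 under 1 CPM in every clone, and their sum was 125 to 163 CPM in WT, 161.5 to 360.5 in P131S and 262 to 402 in H137Y. The part of these other cell types' genes in the changes of the members was not tested. In these bulk samples, fewer cells of a type and less RNA per cell cannot be told apart.

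The lowest levels of these enzymes were found in Rps15 H137Y. By mean RNA level that genotype ranked lowest of the 8 for 8 of the 10 members, and Rps15 P131S ranked lowest for 1, Psph. In H137Y the RNA of 8 members fell and none rose, against 41% of 12814 genes called in either direction and 20% called lower. In P131S 7 fell and 1, Shmt1, rose, against 47% called, 23.4% lower and 23.7% higher. The median log2 change of the 10 was -0.86 in H137Y and -0.46 in P131S, where the median of all genes was 0.01 and -0.01. Both comparisons use the same WT clones. Leaving out 1 clone at a time, 7 to 8 members passed in H137Y, with 33.1% to 41.4% of all genes called. In P131S 4 to 8 passed, with 38.4% to 45.8% of all genes called. The 4 came without WT clone 3, where the share of all genes was 38.6%. Asns, Pycr1, Aldh18a1 and Psph passed each time in P131S. Psat1, Mthfd2 and Mthfd1l did not pass there without any 1 WT clone, clone 24 or clone 63. Calls are adjusted p-values under 0.05 from edgeR's quasi-likelihood test with Benjamini-Hochberg adjustment over all genes tested, and log2 changes carry their standard error (SE).

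**Figure D1:**
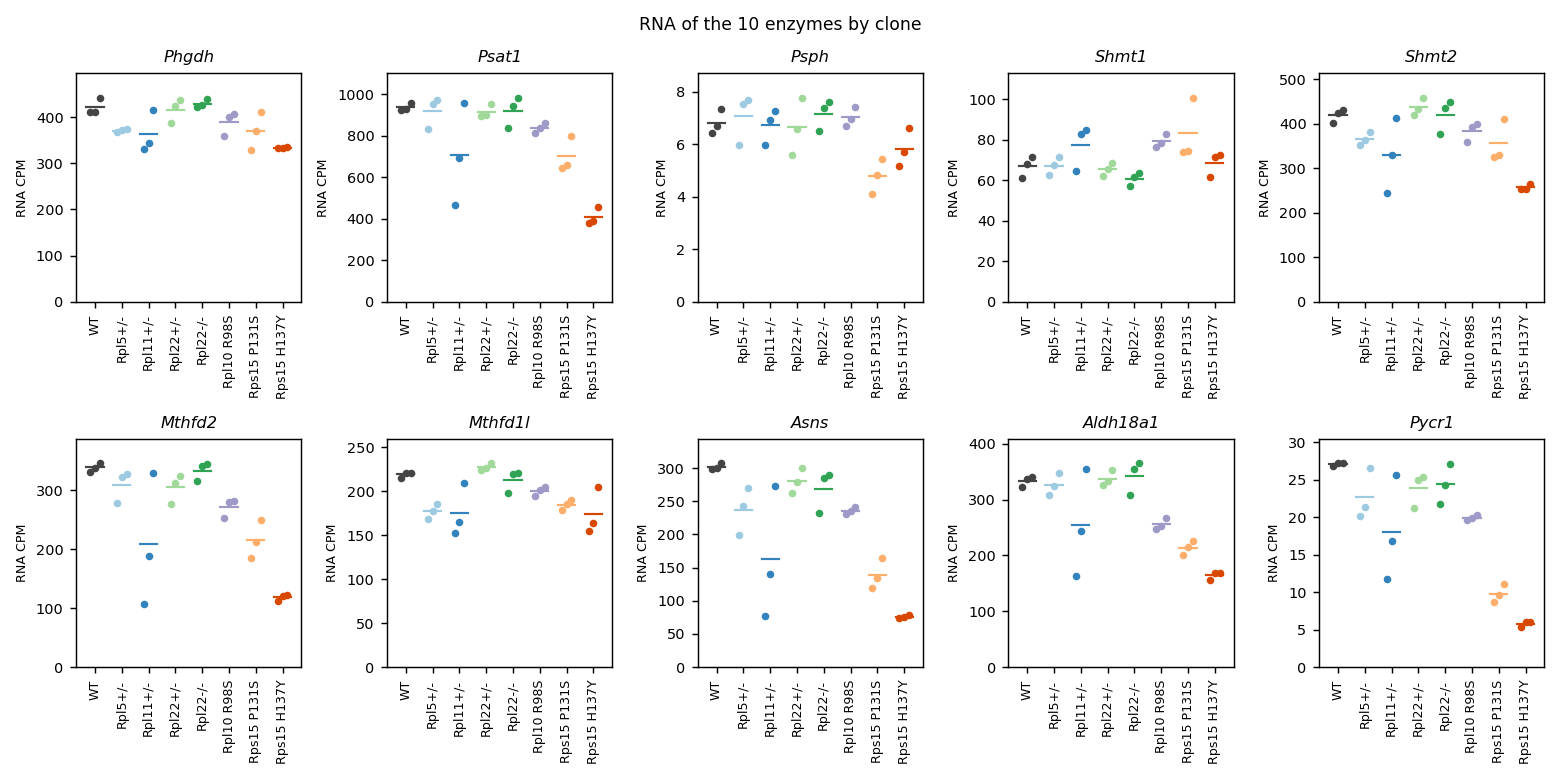
RNA of the 10 enzymes in CPM (y axes from 0, 1 panel per gene) in each of the 24 clones, by genotype on the x axis, with points for clones and a bar for the mean of 3. The H137Y clones sit together at a low level for Asns (73.9 to 79.0 CPM) and Mthfd2 (112 to 122 CPM), while the Rpl11+/- clones spread from 76.9 to 273.5 CPM for Asns.

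Asns, the only enzyme of asparagine synthesis in the group, had 298, 308 and 300.5 CPM of RNA in the 3 WT clones. The H137Y clones had 73.9, 75.4 and 79.0 CPM, and the P131S clones had 134, 119.5 and 165. Every Rps15 clone lay below every WT clone, and the P131S and H137Y clones did not overlap either. The change was -1.99 in H137Y (SE 0.28, adjusted p = 3.72e-05), which left 25.2% of the WT mean, and -1.12 in P131S (SE 0.28, adjusted p = 0.00321), which left 46.1%. Asns footprints were at 784, 636.5 and 769 CPM in WT, at 221, 244 and 190.4 in H137Y and at 393, 359 and 303 in P131S. Footprints thus fell too, by 1.74 (SE 0.24, adjusted p = 0.000124) in H137Y and by 1.05 (SE 0.24, adjusted p = 0.00414) in P131S on the log2 scale.

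In RNA of both Rps15 genotypes the member that fell furthest was one of proline synthesis. Pycr1, which closes the route to proline in mitochondria, had 27.2, 26.8 and 27.2 CPM of RNA in WT, and 5.39 to 6.01 CPM in the H137Y clones. The change was -2.22 (SE 0.19, adjusted p = 2.62e-08), or 21.4% of WT. In P131S the clones had 8.71, 9.60 and 11.1 CPM, a change of -1.46 (SE 0.18, adjusted p = 2.8e-06). Pycr1 footprints went from 32.4 to 41.2 CPM in WT to 7.93 to 12.9 in H137Y (log2 change -1.91, SE 0.26, adjusted p = 0.00011) and 13.99 to 20.9 in P131S (-1.09, SE 0.25, adjusted p = 0.00505), again without overlap. Aldh18a1, which catalyses the first steps from glutamate, had 324 to 340.5 CPM of RNA in WT, 156 to 169 in H137Y and 200.3 to 225 in P131S. Its RNA fell by 1.02 (SE 0.16, adjusted p = 6.09e-05) and by 0.64 (SE 0.16, adjusted p = 0.00267) on the log2 scale. Its footprints fell by 0.78 in H137Y (SE 0.13, adjusted p = 0.000562) and by 0.41 in P131S (SE 0.13, adjusted p = 0.0327). The P131S call was lost without any 1 of its clones, without WT clone 1 or 3 and in a fit of the compared genotypes alone (adjusted p up to 0.162).

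The 3 steps of serine synthesis did not move to the same extent. Psat1, the aminotransferase in the middle, had 925, 958 and 929 CPM of RNA in WT and 382, 391 and 455 in H137Y, a change of -1.19 (SE 0.16, adjusted p = 1.18e-05). In P131S it had 644, 661 and 798 CPM, a change of -0.42 (SE 0.16, adjusted p = 0.0354). Psat1 footprints fell to 547, 635 and 691 CPM in H137Y from 1245 to 1359 in WT (log2 change -1.04, SE 0.17, adjusted p = 0.000419). In P131S they ranged from 989 to 1422 CPM, across the WT values (log2 change -0.15, 95% interval -0.49 to 0.19, adjusted p = 0.608).

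Phgdh, the first and committing enzyme, changed little. Its RNA was at 412 to 442 CPM in WT and at 333, 334 and 335 in H137Y (log2 change -0.34, SE 0.08, adjusted p = 0.00214), and at 329 to 412 CPM in P131S (-0.19, adjusted p = 0.0612). Phgdh footprints had a log2 change of -0.29 in H137Y (95% interval -0.59 to 0.01, adjusted p = 0.22) and of 0.09 in P131S (-0.22 to 0.39, adjusted p = 0.764). A pseudogene copy, Phgdh-ps1, held 0 counts in RNA and 2.3 to 135 in footprint libraries. Psph, the last enzyme, was scarce, with 86 to 289 estimated counts in an RNA library. It fell in P131S, from 6.42, 6.71 and 7.36 CPM in WT to 4.11, 4.82 and 5.42 (log2 change -0.51, SE 0.15, adjusted p = 0.00636), and in H137Y had 5.17 to 6.61 CPM (-0.23, adjusted p = 0.219). Psph footprints rested on 12 to 153 counts per library. They were at 2.04 to 2.12 CPM in WT, 0.247 to 1.397 in P131S and 0.756 to 1.33 in H137Y, without overlap, and missed the threshold (log2 change -1.27, SE 0.5, adjusted p = 0.092 and -1.07, SE 0.5, adjusted p = 0.184).

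Among the one-carbon enzymes the 3 mitochondrial members fell in H137Y RNA and the cytosolic Shmt1 did not pass. Mthfd2, the mitochondrial dehydrogenase, had 332 to 346 CPM of RNA in WT, 112, 121 and 122 in H137Y and 186, 212.5 and 249 in P131S. Its RNA fell by 1.52 (SE 0.24, adjusted p = 9.58e-05) and by 0.65 (SE 0.24, adjusted p = 0.0321). Its footprints, 221 to 249 CPM in WT, were at 68.2 to 90.6 in H137Y and 130.7 to 167 in P131S, lower by a log2 change of -1.60 (SE 0.24, adjusted p = 0.000259) and -0.70 (SE 0.23, adjusted p = 0.0451). Shmt2, which loads the mitochondrial folate pool, fell in H137Y RNA, from 402 to 432 CPM to 252, 254 and 265 (log2 change -0.71, SE 0.12, adjusted p = 0.000138). In P131S its clones had 326, 331 and 412 CPM (-0.24, adjusted p = 0.123). Its footprints did not pass in either genotype, at 464 to 515 CPM in H137Y against 545 to 689 in WT (log2 change -0.36, 95% interval -0.70 to -0.03, adjusted p = 0.158). Mthfd1l, which releases formate, fell in RNA by 0.33 in H137Y (SE 0.10, adjusted p = 0.00893) and by 0.25 in P131S (SE 0.10, adjusted p = 0.0396), from 216 to 221 CPM in WT to 155 to 205 and 178 to 190.2. Its footprints fell in H137Y, by 0.36 on the log2 scale (SE 0.10, adjusted p = 0.0281), a call lost without any 1 WT clone or H137Y clone 16 or 6 (adjusted p up to 0.144).

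Shmt1, the cytosolic counterpart of Shmt2, was the exception. In P131S its RNA rose, from 61.2 to 71.5 CPM in WT to 73.9, 74.6 and 100.7, with a log2 change of 0.31 (SE 0.11, adjusted p = 0.0237). Its footprints rose there as well, from 96.5 to 124 CPM to 152, 156 and 219.5, with a log2 change of 0.64 (SE 0.15, adjusted p = 0.0058). Clone 20 was the high value at both levels, and without it the changes were 0.14 and 0.44 and neither passed (adjusted p = 0.275 and 0.0609). In H137Y Shmt1 RNA had a log2 change of 0.03 (95% interval -0.19 to 0.26), and its footprints, 138 to 145 CPM, a change of 0.33 (adjusted p = 0.167).

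The 2 Rps15 substitutions differed from each other in these enzymes. In RNA 5 members were higher in P131S than in H137Y and none was lower, against 25.2% of genes called in that comparison and 12.6% called higher. They were Mthfd2 (log2 difference 0.87, SE 0.24, adjusted p = 0.0131), Asns (0.87, SE 0.28, adjusted p = 0.0284), Psat1 (0.78, SE 0.16, adjusted p = 0.00153), Pycr1 (0.76, SE 0.19, adjusted p = 0.0056) and Shmt2 (0.47, SE 0.12, adjusted p = 0.00824). Phgdh (0.15, 95% interval -0.02 to 0.32) and Mthfd1l (0.08, -0.12 to 0.28) did not pass, and Psph was at -0.29 (-0.59 to 0.02). In footprints Psat1 (0.89, SE 0.17, adjusted p = 0.00357) and Mthfd2 (0.90, SE 0.24, adjusted p = 0.0338) were higher in P131S, 2 of 10 against 4.17% of 16217 genes called and 2.23% called higher. Without P131S clone 20, 2 of the RNA calls (Psat1 and Pycr1) passed, with 17.5% of all genes called. Of the footprint calls 1 (Psat1) passed, with 1.91% of all genes called. The Asns RNA call was also lost without any 1 H137Y clone, and the Mthfd2 footprint call without H137Y clone 16 or 6. Asns footprints differed by 0.69 (95% interval 0.20 to 1.18, adjusted p = 0.107) and Pycr1 footprints by 0.81 (0.28 to 1.34, adjusted p = 0.0737).

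The members' RNA varied over the H137Y clones with a median SD of 0.08 on the log2 scale, from 0 to 0.21 (Mthfd1l), and their footprints with 0.15, from 0.04 to 0.42 (Psph). The Rps15 RNA of these clones stood at 127%, 60.6% and 56.6% of WT in clones 16, 2 and 6, and the summed myeloid RNA at 1231, 651 and 4193 CPM, while Asns was at 73.9, 75.4 and 79.0 CPM in the same order. In P131S the clones 20, 24 and 63 had Rps15 RNA at 134%, 62.8% and 126% of WT, summed myeloid RNA of 593, 1620 and 3591 CPM, and Asns at 165, 134 and 119.5 CPM. The part of either measure in the changes of the members was not tested.

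**Figure D2:**
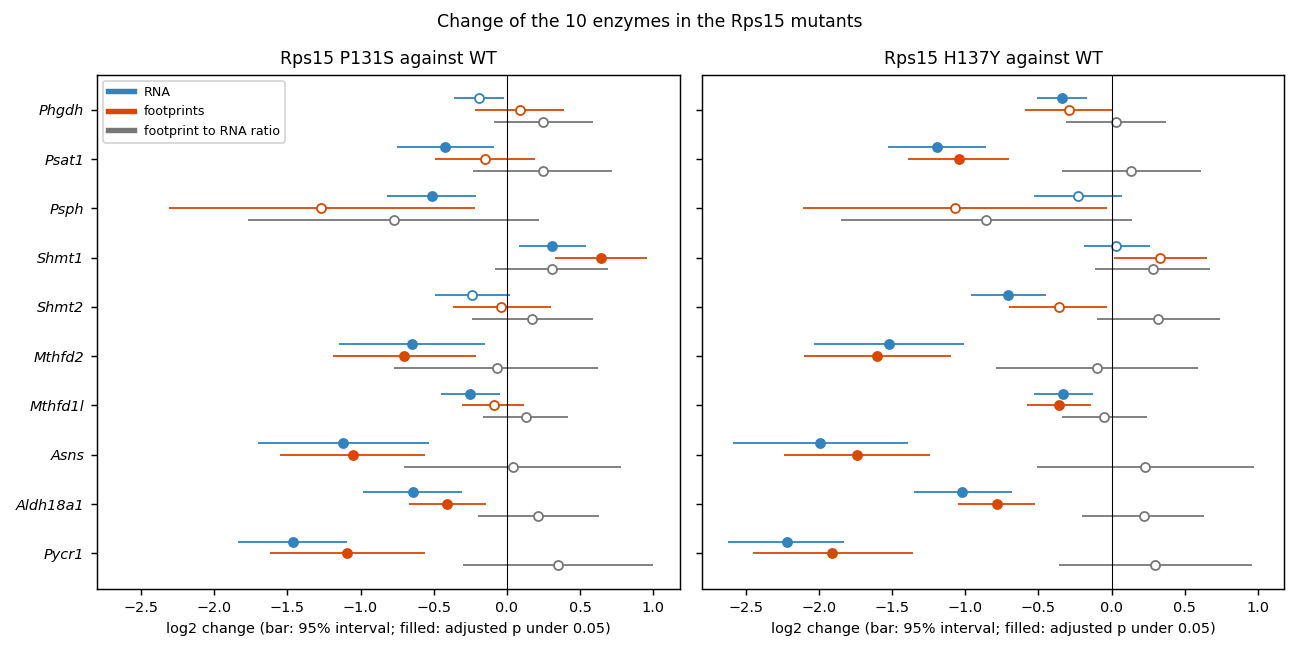
Log2 change of each enzyme against WT (x axis, with 95% intervals) in Rps15 P131S (left) and Rps15 H137Y (right) for RNA, footprints and the footprint to RNA ratio, with filled points for adjusted p under 0.05. The RNA and footprint points of Psph lie furthest apart, the H137Y points of Pycr1, Asns and Mthfd2 reach furthest left, and every interval of the ratio crosses 0.

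In footprints the same 3 genes changed most in H137Y as in RNA, Pycr1, Asns and Mthfd2. In H137Y the footprints of 6 members fell, against 11.7% of 16217 genes called and 6.44% called lower. In P131S 4 fell and 1 rose, against 16.7% called, 8.28% lower and 8.42% higher. For 9 members all 3 H137Y clones lay below all 3 WT clones in footprints, against 16.4% of all genes. Translational efficiency, the ratio of footprints to RNA, passed for 0 of 10 members in every genotype with edgeR, DESeq2 and limma voom. In the edgeR fit, which did not pair the libraries of a clone, 0 had an unadjusted p under 0.05 in any mutant against WT. Over all 16568 genes the share called was 0.217% in Rpl10 R98S, 2.76% in H137Y, 3.14% in P131S, 0.0121% in Rpl22-/-, 0.00604% in Rpl22+/- and 0% in Rpl11+/- and Rpl5+/-.

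The intervals of the ratio given here come from the fit of group means. That fit did not pair the RNA and footprint libraries of a clone, so spread shared by both libraries counts in the width. Per clone, the log2 ratio of Mthfd2 was -0.523 ± 0.0586 (SD, n = 3) in WT, -0.61 ± 0.165 in H137Y and -0.57 ± 0.0557 in P131S. No interval of a paired fit is given. Per-clone ratios lay above all WT clones for Phgdh, Psat1, Shmt1, Aldh18a1 and Pycr1 in P131S, and for Psat1 and Aldh18a1 in Rpl10 R98S. In H137Y they did so for Shmt1, Shmt2 and Aldh18a1, and lay below for Psph. For Shmt1 the log2 ratio was 0.747 ± 0.103 (SD, n = 3) in WT, 1.077 ± 0.0451 in P131S and 1.06 ± 0.161 in H137Y. The share of all genes without overlap was not computed. A test of these ratios called 0 members in P131S and H137Y (5.39% and 4.54% of all genes). For Asns the log2 change of the ratio was 0.23 in H137Y (95% interval -0.51 to 0.97) and 0.04 in P131S (-0.70 to 0.78), around a WT ratio of 1.27 ± 0.188 (SD, n = 3) on the log2 scale. For Pycr1 it was 0.30 (-0.36 to 0.96) and 0.35 (-0.30 to 1.00), and for Mthfd2 -0.10 (-0.79 to 0.59) and -0.07 (-0.77 to 0.62). The median over the 10 members was 0.17 in H137Y and 0.19 in P131S, where the median of all genes was -0.02 and -0.01. Psph alone had an estimate well below 0, at -0.86 (-1.85 to 0.14) and -0.77 (-1.77 to 0.22), on the few footprints given above.

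**Figure D3:**
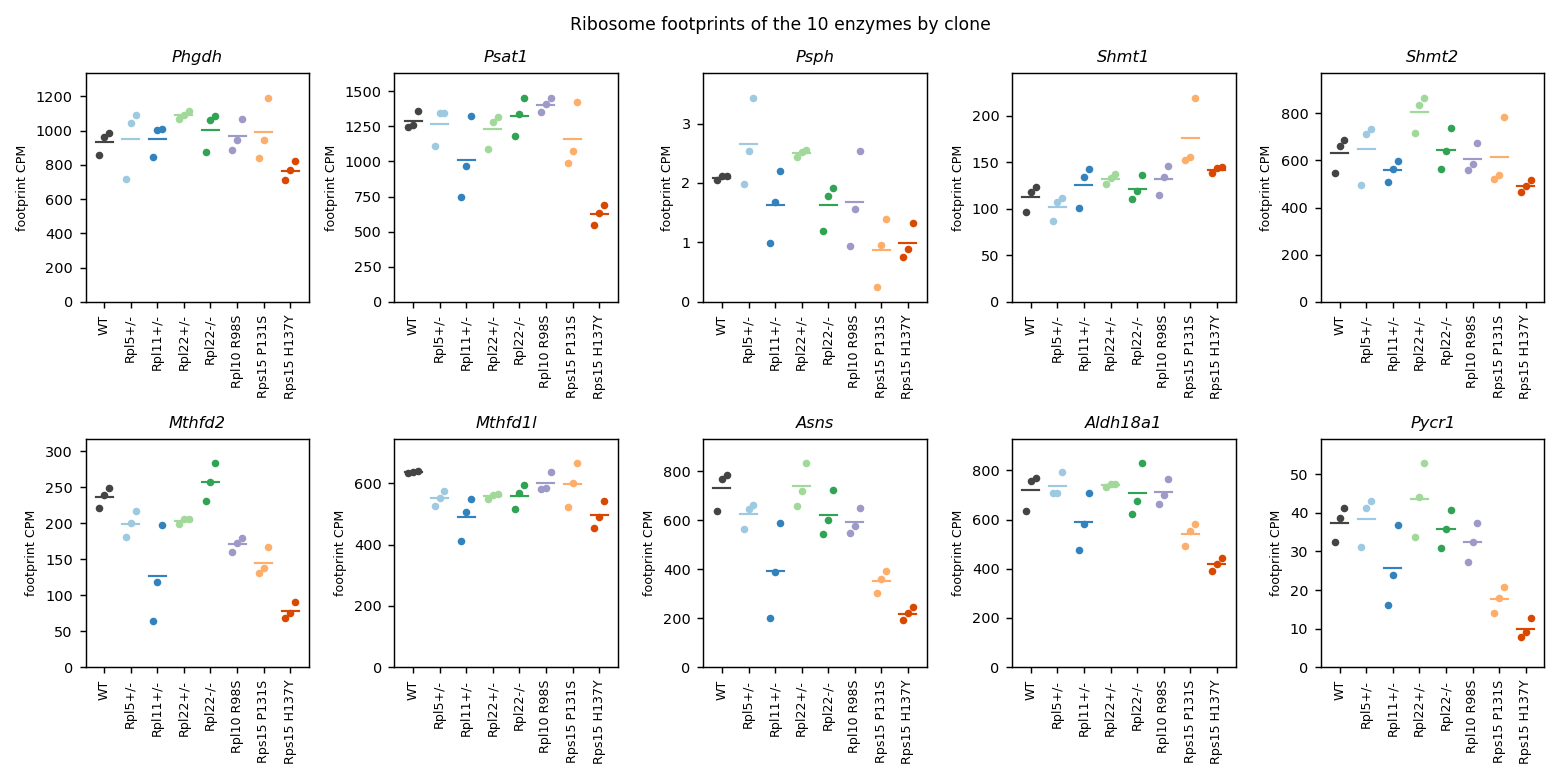
Ribosome footprints of the 10 enzymes in CPM (y axes from 0, 1 panel per gene) in each of the 24 clones by genotype (x axis), points for clones and bars for the mean of 3. Asns, Mthfd2, Pycr1, Psat1 and Aldh18a1 have their lowest mean in H137Y, and Shmt1 its highest in P131S, led by 1 clone at 219.5 CPM.

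Rpl11+/- was the other genotype in which members fell in RNA, and it held very unlike clones. Asns, Pycr1 and Mthfd1l fell, 3 of 10 against 11.8% of genes called and 6.05% called lower, with log2 changes of -0.88 (SE 0.28, adjusted p = 0.0453), -0.58 (SE 0.18, adjusted p = 0.0346) and -0.32 (SE 0.10, adjusted p = 0.0336). Asns RNA was at 76.9 CPM in clone 22, 141 in clone 406 and 273.5 in clone 414, or 25.4%, 46.5% and 90.5% of the WT mean. Clone 22 thus held as little Asns as the H137Y clones, while clone 414 lay near WT.

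Most other members were ordered alike over these clones. Clone 414 had the highest RNA of the 3 in 8 of 10 members and clone 22 the lowest in 8. Mthfd2 RNA was at 31.5%, 55.8% and 97.4% of WT in clones 22, 406 and 414, Psat1 at 50.0%, 74.1% and 102%, Aldh18a1 at 49.2%, 73.1% and 107%, and Pycr1 at 43.3%, 62.2% and 94.8%. Shmt1 ran the other way, at 124%, 126% and 96.1%. Footprints rose from clone 22 over 406 to 414 in 7 of 10 members, with Asns at 27.2%, 53.3% and 80.3% of WT and Mthfd2 at 27.0%, 49.9% and 83.8%. Phgdh footprints broke the order at 108%, 90.2% and 107%, as did Shmt1 at 119%, 127% and 89.2% and Mthfd1l at 79.7%, 64.9% and 86.4%. Without clone 414, 9 members passed in RNA (8 lower and Shmt1 higher), and 3 in footprints (Mthfd2, Asns and Mthfd1l), where 16.7% and 1.09% of genes were called. Without clone 22, clone 406 or any 1 WT clone, 0 passed in RNA, with 4.58% to 6.73% of genes called. In the full set no member passed in footprints in Rpl11+/- (6 with an unadjusted p under 0.05), against 0.074% of genes called. DESeq2 called 2 there (Mthfd2 and Asns), against 1.48% of genes. Rpl11 RNA itself was at 1063, 1150 and 1008 CPM in clones 22, 406 and 414, and the summed myeloid RNA at 50.1, 91.5 and 240.5 CPM.

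**Figure D4:**
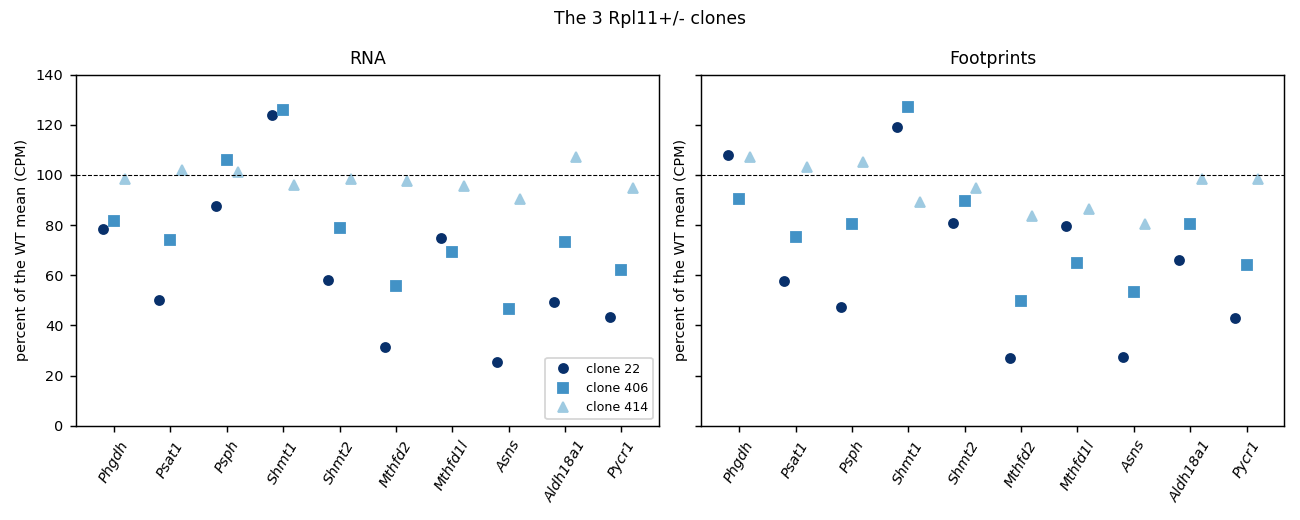
Level of each enzyme in the 3 Rpl11+/- clones as a percentage of the WT mean (y axis, dashed line at 100%) in RNA (left) and footprints (right), genes on the x axis. Clone 22 is lowest for most members, down to 25.4% for Asns RNA, and clone 414 stays close to the WT line.

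In Rpl10 R98S the differences were small and regular. For 8 members all 3 clones lay below all 3 WT clones in RNA, against 22.7% of all genes, yet 0 passed the test, against 12.9% called (edgeR, 3 with an unadjusted p under 0.05, 0 with DESeq2 and with limma voom). Asns had 230.5, 235 and 241 CPM there against 298 to 308 in WT (log2 change -0.36, 95% interval -0.94 to 0.22, adjusted p = 0.419). Aldh18a1 had 247, 253 and 267 CPM (-0.38, -0.71 to -0.05, adjusted p = 0.117) and Pycr1 19.7, 19.9 and 20.3 CPM (-0.44, -0.80 to -0.08, adjusted p = 0.101). When the fit held WT and Rpl10 R98S alone, so that the spread of the other genotypes no longer counted, 7 members passed, 6 lower, among them Asns (-0.35, adjusted p = 3.48e-05) and Pycr1 (-0.43, adjusted p = 0.000176), and 1 higher, Shmt1 (0.25, adjusted p = 0.0063), with 35.4% of genes called. In footprints 0 of 10 passed and 0 had an unadjusted p under 0.05, against 1.62% called.

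The loss genotypes of Rpl5 and Rpl22 gave no calls. In Rpl5+/- 0 of 10 passed in RNA (2 with an unadjusted p under 0.05) against 1.04% of genes called, and 0 in footprints against 0.0123%. For 6 members all 3 Rpl5+/- clones lay below WT in RNA, against 16.8% of all genes. Mthfd1l had the lowest adjusted p, at 168 to 186 CPM against 216 to 221 (log2 change -0.31, adjusted p = 0.121), followed by Phgdh at 367 to 373 CPM against 412 to 442 (-0.19, adjusted p = 0.272). Asns had the largest change, with 199, 243 and 270.2 CPM (-0.35, adjusted p = 0.595). In a fit of WT and Rpl5+/- alone, Mthfd1l, Phgdh and Shmt2 passed and Asns did not, 3 of 10 with 15.8% of genes called. In Rpl22+/- and in the clones labelled Rpl22-/- 0 of 10 passed in RNA, against 3.9% and 5.27% called, and 0 in footprints, against 0.253% and 0.105%. No member there had an unadjusted p under 0.05 in RNA, and the RNA changes ran from -0.18 to 0.06 in Rpl22+/- and from -0.17 to 0.08 in the clones labelled Rpl22-/-. In Rpl22+/- footprints, Phgdh, Psph, Shmt1 and Shmt2 (717 to 866 CPM against 545 to 689) lay above all WT clones. Mthfd2 and Mthfd1l (550.5 to 567 CPM against 633 to 640) lay below them. The share of all genes without overlap there was not computed. Without clone 30 of those labelled Rpl22-/-, 0 of 10 passed again in RNA, in footprints and in the ratio, with 2.66%, 0.0468% and 0.00579% of genes called.

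In RNA, Atf4 had no called fall in either Rps15 genotype. The members were picked as enzymes under ATF4 control, and the part of ATF4 in their changes was not tested. Atf4 RNA was at 418 to 421 CPM in WT and rose in P131S to 502 to 626 CPM (log2 change 0.38, SE 0.15, adjusted p = 0.0408). All clones of the other 5 mutant genotypes outside Rps15 also lay above WT, between 434 and 534 CPM, with log2 changes of 0.11 to 0.32 that did not pass. In H137Y, clones 16 and 2 were at the WT level with 425 and 419 CPM and clone 6 was at 222 (-0.24, adjusted p = 0.213). Its footprints fell in both, from 111 to 142 CPM in WT to 81.7 to 98 in P131S (-0.51, SE 0.17, adjusted p = 0.045) and to 57.3 to 77.6 in H137Y (-0.97, SE 0.17, adjusted p = 0.000925). The ratio of its footprints to its RNA fell in P131S, with a log2 change of -0.91 (SE 0.23, adjusted p = 0.0208). The H137Y value, -0.75 (SE 0.23, adjusted p = 0.0727), did not pass, and it includes clone 6 with its low RNA. In the clones labelled Rpl22-/-, Atf4 footprints were at 202 to 205 CPM, above all WT clones (0.67, adjusted p = 0.173), and no member passed there. Whether footprints on its upstream reading frames were counted with the gene is not given in the sources used here.

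Of 14 tested genes of ATF4 and its regulators, 6 were lower and 3 higher in P131S RNA, and 5 lower and 2 higher in H137Y RNA. That is 9 and 7 of 14 called, where 47% and 41% of all genes were called. Nupr1, a stress-induced chromatin protein, had log2 changes of -1.68 and -4.83, Ddit3 (CHOP) of -2.86 and -2.94, Trib3, a pseudokinase that restrains ATF4, of -2.15 and -2.57, Atf5 of -1.56 and -1.80, and Sesn2, a leucine sensor, of -0.99 and -1.10, and the highest adjusted p was 0.0191. Footprints of these 5 genes fell in both genotypes as well, with a highest adjusted p of 0.0481. Over the list 7 of 14 genes were lower in footprints in each genotype, against 8.28% of all genes in P131S and 6.44% in H137Y, and 1 was higher in P131S. The Rpl11+/- clones 22, 406 and 414 held 19.5, 30.0 and 79.7 CPM of Trib3 RNA against 72.5 to 89.8 in WT, the order seen for Asns. In Rpl10 R98S Ddit3 (-1.25, adjusted p = 0.00962) and Atf5 (-0.93, adjusted p = 0.0209) fell in RNA.

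**Figure D5:**
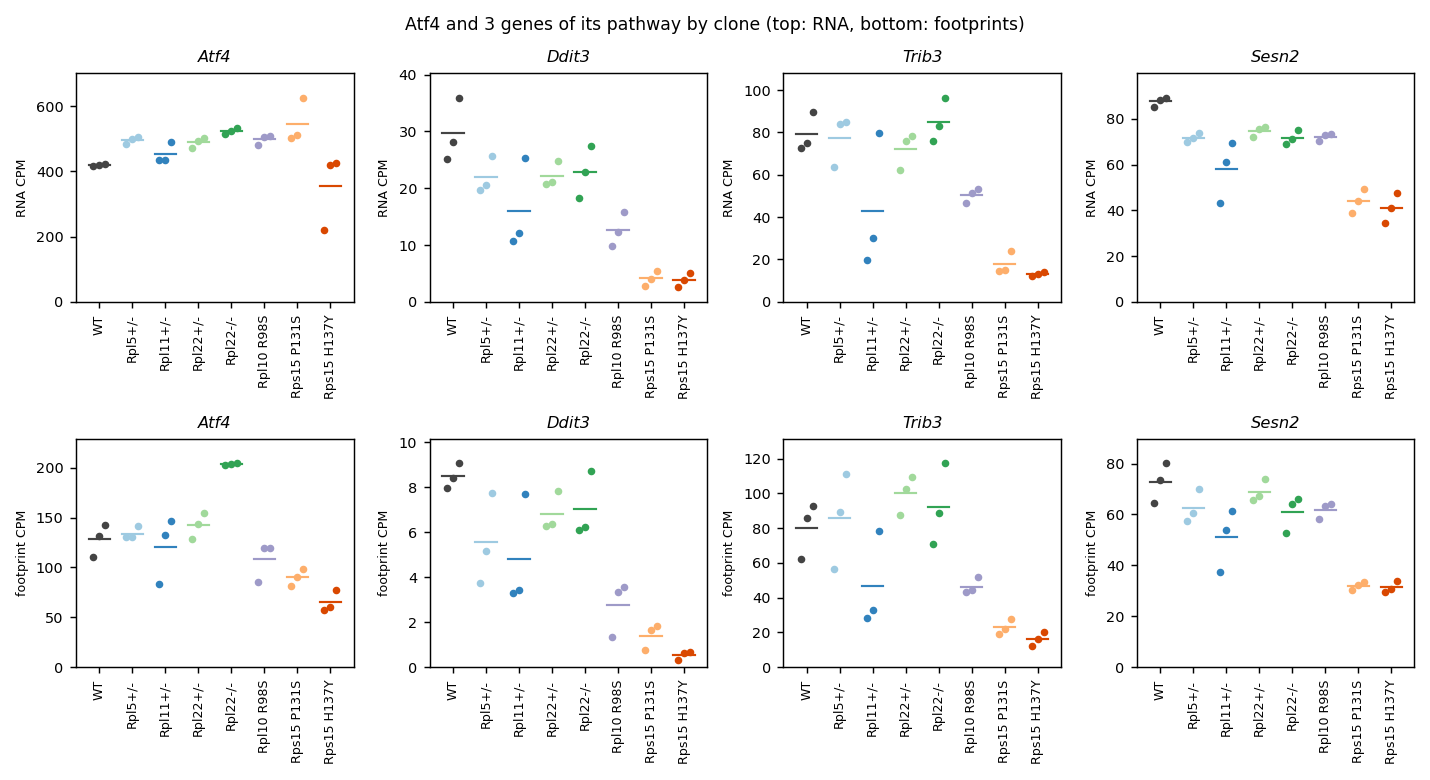
Atf4, Ddit3, Trib3 and Sesn2 in CPM (y axes from 0) in each clone by genotype (x axis), RNA in the top row and footprints in the bottom row, with bars for the mean of 3. Atf4 RNA is not lowered in P131S while its footprints are, and the other 3 genes are low in both Rps15 genotypes at both levels.

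Other enzymes next to these routes had calls in both directions, as did all genes. Of 14 tested folate and one-carbon enzymes outside the 10, 6 rose and 1 fell in P131S RNA and 1 rose and 3 fell in H137Y RNA. Of all genes 47% were called in P131S (23.7% higher, 23.4% lower) and 41% in H137Y (20% lower). Mat2a, which makes S-adenosylmethionine, rose in both (log2 change 0.95, adjusted p = 0.00125 and 1.00, adjusted p = 0.000991). Of 13 tested glutamate, aspartate and proline enzymes, 5 rose and 2 fell in P131S and 5 rose and 4 fell in H137Y, against the same shares of all genes. Gpt2, the mitochondrial alanine aminotransferase, fell from 253 to 262 CPM to 96.4 to 127 in P131S (-1.26, adjusted p = 0.000445) and 57.4 to 65.3 in H137Y (-2.07, adjusted p = 6.46e-06). Prodh, which degrades proline, rose in both (0.40 and 0.49). Of the serine and cysteine list 2 of 7 genes were tested in RNA, too few to set against these shares. Serine racemase, Srr, fell in both (-0.91 and -1.02).

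The RNA pattern over the 8 genotypes, as the median of the members' centred log2 values, ran from 0.26 in Rpl22+/- and 0.25 in WT to -0.17 in P131S and -0.61 in H137Y, with -0.16 in Rpl11+/-. Among 8479 genes with a mean of at least 10 CPM, the 5 with the smallest root-mean-square difference from it were Mtbp (0.041), Iah1 (0.056), 1110059E24Rik (0.058), Stard3nl (0.062) and Slc7a1 (0.063), the last a transporter of arginine and lysine. This likeness is a description over 8 genotype means.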

How the data were processed

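Poly(A) RNA and ribosome footprints of 24 Ba/F3 clones (8 genotypes, 3 clones each) were analysed. The values are estimated counts per Ensembl gene as deposited by the authors, and 81.4% to 93.6% of the values in a library were whole. The submitters' processing notes name Salmon 1.4.0, STAR 2.6.1d, DESeq2 1.30 and the build GRCm38, and the feature counted in footprints is not given in the sources used here. The values were rounded to whole numbers, scaled by TMM within each assay, filtered by filterByExpr (12814 genes in RNA, 16217 in footprints, 16568 in the ratio) and tested with edgeR 4.0.16 (quasi-likelihood) in R 4.3.3, with all 8 genotypes in a single fit and the ratio as an interaction over 48 libraries. P-values were adjusted by Benjamini-Hochberg over all genes, with calls under 0.05, and CPM use TMM-scaled library totals.

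Clone numbers pair the RNA and footprint libraries, since each lysate was divided between the assays: deviations from the genotype means over 7137 genes correlated between the libraries of 1 clone in all 24 pairs (r from 0.21 to 0.719) and ran from -0.608 to 0.058 between different clones. Alternatives were DESeq2 1.42.0, limma 3.58.1 (voom, and per-clone ratios with a prior count of 0.5), RLE scaling, no filter, a fit of the compared genotypes alone, each clone left out, pseudogene counts added and clone as a block. The scripts were tested on simulated data. The members and lists were chosen with earlier results of these data known. All 10 members are named. From the other lists Atf4 is named, with up to 5 genes per comparison that passed, whose groups did not overlap and whose change was largest. The 5 genes most like the members needed a mean of at least 10 CPM. Some results are not reported here.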

Additional observations from a re-analysis of the deposited data

Results flagged for a closer look

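For 5 enzymes the response differed between the Rps15 substitutions by a direct test of P131S against H137Y (edgeR's quasi-likelihood test, adjusted over all genes). In RNA the P131S minus H137Y difference was 0.87 for Asns, 0.87 for Mthfd2, 0.78 for Psat1, 0.76 for Pycr1 and 0.47 for Shmt2 on the log2 scale. In footprints it was 0.89 for Psat1 and 0.90 for Mthfd2. In each of these the lower level was in H137Y. Over all genes, 25.2% were called in RNA and 4.17% in footprints. Without P131S clone 20, only Psat1 and Pycr1 passed in RNA, with 17.5% of all genes called, and only Psat1 in footprints, with 1.91%.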

How the results depend on the processing

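Of 37 member calls, 19 were kept under every alternative run and 0 reversed direction in 444 recomputations, while 78 recomputations lost the call. The 19 include Asns and Pycr1 in both Rps15 genotypes against WT in RNA and footprints. With clone as a replicate block, which pairs the libraries of each clone, 0 members passed in the ratio, as without it.

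In a fit of the compared genotypes alone, 3 members passed in RNA in Rpl5+/- (0 in the fit of all genotypes), 0 in Rpl11+/- (3), 7 in Rpl10 R98S (0) and 3 in P131S against H137Y (5), and in footprints 1 in Rpl10 R98S (0) and 0 in P131S against H137Y (2). In the same order, the share of all genes called in these fits was 15.8%, 7.12%, 35.4% and 3.13% in RNA. In footprints it was 4.88% and 0.243%. DESeq2 and limma voom each called 5 members in Rpl11+/- RNA, where they called 14.9% and 12.4% of all genes. DESeq2 called 2 in Rpl11+/- footprints (1.48% of all genes) and 5 in P131S against H137Y footprints (8.07%). Without the filter on low counts, 1 member passed in Rpl11+/- RNA (4.75% of all genes) and 5 in P131S RNA (24.4%). For these differences the cause was not tested.

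Leaving out 1 clone at a time gave 0 to 9 members in Rpl11+/- RNA (4.58% to 16.7% of all genes called) and 4 to 8 in P131S RNA (38.4% to 45.8%). It gave 7 to 8 in H137Y RNA (33.1% to 41.4%) and 2 to 7 in P131S against H137Y RNA (17.5% to 27.8%). In footprints it gave 0 to 3 in Rpl11+/- (0.0117% to 1.09%) and 2 to 4 in P131S (9.37% to 15.6%). There it also gave 5 to 6 in H137Y (6.4% to 8.44%) and 1 to 3 in P131S against H137Y (1.91% to 4.79%). Mthfd1l RNA in H137Y was lost without H137Y clone 2, and Mthfd2 footprints in P131S without any 1 of the 6 clones compared. Depth limits Psph most, whose footprints in P131S missed the threshold with edgeR and passed with DESeq2 (adjusted p = 0.0443) and limma voom (adjusted p = 0.0303).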
